A study of Sus scrofa with 9 samples.

Results

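The circRNAs described here are those whose host gene carries a zinc finger symbol. They were chosen by the start of the host symbol alone (ZNF, ZFP, ZFR, ZFX, ZFAND, ZFYVE, ZBTB, ZSCAN, ZKSCAN, ZSWIM, ZMYM, ZMYND, ZMIZ, ZC3H, ZCCHC, ZDHHC, ZEB or ZHX), and that rule uses no measured value, although zinc finger genes were taken up with earlier results of these data known. In the table of 3071 circRNAs from 1727 host genes, 57 circRNAs from 40 host genes met this rule, which is 1.86% of the circRNAs and 2.32% of the hosts. Of the 18 symbol groups, 6 had no member, namely ZFX, ZFAND, ZFYVE, ZMIZ, ZEB and ZHX. Of the 57 entries, 54 carried the prefix circRNA and 3 the prefix ciRNA (ciRNA-23 of ZC3HC1, ciRNA-44 of ZNF207 and ciRNA-5 of ZNF592), and 46 entries of the whole table had the second prefix. The table writes these names without a hyphen.

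Whole-transcriptome libraries of untreated porcine MII oocytes, PN embryos and sperm were compared, with 3 libraries per group, to find RNAs that sperm carry into the oocyte. MII oocytes came from follicles of postpubertal gilts older than 8 months, which the methods name as Long White pigs. The oocytes were matured in vitro and freed of cumulus cells, with 10000 oocytes in the RNA preparation. PN embryos were 1-cell embryos made by in vitro fertilization of such oocytes, collected 18 h after fertilization began, again 10000 in number. Sperm were purified by density centrifugation from fresh semen of boars aged 2 to 3 years, and the methods name Landrace boars for fertilization and Large White boars for the sperm RNA. Each library is a population of cells, and no source used here says that the libraries of a group came from separate pools, so that the p-values measure only the spread between these libraries, which may be technical.

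Zinc fingers are small protein folds held together by a zinc ion, and they do different work in different families. C2H2 fingers of ZNF, ZFP, ZBTB, ZSCAN and ZKSCAN proteins mostly bind DNA, and many ZNF proteins carry a KRAB domain that recruits the co-repressor TRIM28 to transposable elements in early embryos. CCCH fingers and zinc knuckles bind RNA, MYM and MYND fingers bind partner proteins in chromatin complexes, and DHHC proteins attach palmitate to other proteins. A circRNA forms when a splice donor joins an upstream acceptor, and its count here is the deposited number of reads assigned to that circle, not to the linear mRNA of the host.

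The member followed up by PCR in the study was circRNA-1974 of ZSWIM6. In the paper's quantitative PCR it was minimal in MII oocytes and high in sperm, without a significant difference between oocytes and PN embryos. Its 6 primers are printed because they define the only member called by the main edgeR tests below. It entered the test that called it only through sperm, and other settings also called other members. Divergent primers point away from each other on the linear transcript and amplify across the back-splice junction, whereas convergent primers amplify the linear form as well. Capitals mark the 7 bases at the 3′ end of the quantitative PCR forward primer that are the reverse complement of the 3′ end of the convergent reverse primer.
convergent forward: gtttccacttgagtggcacagta
convergent reverse: ccagctcatcccaGAGCTGC
divergent forward: gtgctcctgatccaacagcagg
divergent reverse: agccagatcaggtcaaattgc
qPCR forward: tgactgacaaatatagGCAGCTC
qPCR reverse: gcggtataaagacaatgccaca
The primers are 20 to 23 bases long. The positions and sequences of the other circles are not analysed here.

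The circRNA columns of sperm replicates 1 and 3 held identical values for all 3071 circRNAs, of which 562 were above 0, and were counted as 1 sample, so that sperm had 2 distinct libraries. The lncRNA coverage of the same replicates was equal in only 0.262% of transcripts above 0. Total circRNA counts were 24217, 24002 and 22809 in MII oocytes 1 to 3, 23056, 26200 and 24503 in PN embryos, and 155731 and 167851 in sperm. A value of 0 therefore allows up to 3 counts, a share of 0.0115% to 0.0132% in oocytes and embryos and of 0.00179% to 0.00193% in sperm, for counting error only. The protamine PRM1, a defining marker of sperm, had an lncRNA coverage of 22557 to 26768 in sperm, 0 to 5.27 in MII oocytes and 8.91 to 17.2 in PN embryos. Of 18 sperm and spermatid markers 9 had a listed lncRNA, with a summed coverage of 186 to 415 (MII oocytes), 128 to 253 (PN embryos) and 23325 to 29053 (sperm), but not all were high in sperm. A SPATA16 transcript had 7.25, 157 and 81.6 in MII oocytes, 126, 73.8 and 89.6 in PN embryos, and 0.23, 0.19 and 0 in sperm. Both AKAP3 transcripts were found in oocytes alone. Of 11 cumulus markers 5 had a listed lncRNA, with a summed coverage of 197 to 450 in MII oocytes, 134 to 408 in PN embryos and 208 to 2890 in sperm, and of 14 oocyte markers KIT alone had one, at 0 in all but MII oocytes 3 and sperm 1. Of 5 blood markers 3 had a listed lncRNA, with a summed coverage of 0.19 to 109 in MII oocytes, 0 to 103 in PN embryos, and 507, 1038 and 0 in sperm 1 to 3. In sperm 1 and 2 this was the leukocyte gene PTPRC at 506 and 317 and the globin HBB at 1 and 721. As circRNA hosts, 3 oocyte markers had 49 counts in MII oocytes 1, 78 in PN embryos 1 and 3 in PN embryos 3, 4 sperm markers had 472 and 321 in sperm and 1 in PN embryos 1 and 3 each, 1 cumulus marker had 19 in sperm 1, and no blood marker was a host. The part of other cells in the results, the larger share of zinc finger circles in sperm included, was not tested.

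The circles of zinc finger genes took a larger part of the sperm libraries than of the oocyte and embryo libraries. They held 456, 245 and 427 counts in the oocyte libraries, 309, 300 and 175 in the embryo libraries, and 6596 and 5400 in sperm. As shares of all circRNA counts these were 1.88%, 1.02% and 1.87% in MII oocytes (mean 1.59% ± 0.495, SD, n = 3). In PN embryos the shares were 1.34%, 1.15% and 0.714% (mean 1.07% ± 0.320, SD, n = 3). In sperm they were 4.24% (95% Wilson interval 4.14 to 4.34) and 3.22% (3.13 to 3.30), with a mean of 3.73% ± 0.720 (SD, n = 2). Both sperm libraries lay above all oocyte and embryo libraries, whereas oocytes and embryos overlapped. For sperm 2 the separation from oocytes rested on 1 circle: without circRNA-1974 the sperm shares were 3.75% and 1.62%, and the latter lay below MII oocytes 1 and 3. With hosts of the ZNF, ZFP, ZBTB, ZSCAN and ZKSCAN groups alone, sperm 2 had 0.443% and MII oocytes 1 had 0.603%. The ratio of mean shares was 2.34 ± 0.857 for sperm to MII oocytes and 3.49 ± 1.25 for sperm to PN embryos (SD propagated from both groups). Scaled to the valid reads of each library instead of its circRNA counts, these ratios were 16.3 and 23.0. Shares are relative to the circRNAs of each library, and fewer circles per cell and fewer cells cannot be told apart in such pools.

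**Figure D1:**
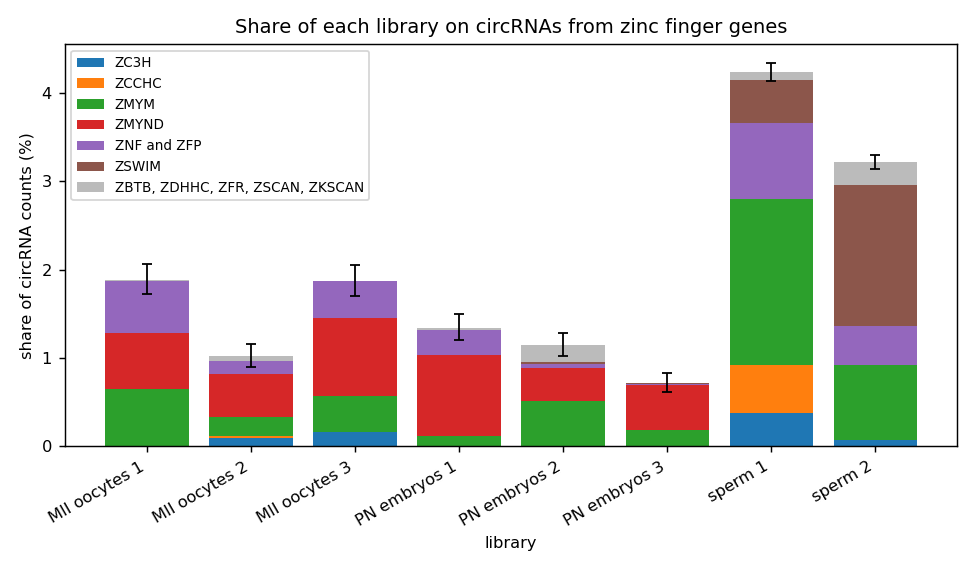
Share of all circRNA counts (%, vertical axis) held by circRNAs of zinc finger genes in each library, stacked by family, with the 95% Wilson interval of the sum (counting error only). The sperm bars reach 4.24% and 3.22%, and the oocyte and embryo bars lie between 0.714% and 1.88%; ZMYND is the largest block in 4 of the 6 lower bars and ZSWIM the largest in sperm 2.

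Most of these circles were seen in 1 group and in 1 library. Of the 57, 25 were found in sperm alone (43.9%, against 24.8% of all circRNAs), 15 in MII oocytes alone (26.3% against 30.7%) and 7 in PN embryos alone (12.3% against 23.8%). Both oocytes and embryos but not sperm had 5 members (8.77% against 12.8%), and 2 were at 0 in oocytes and above 0 in embryos and sperm (3.51% against 3.35%). These 2 were circRNA-1974 of ZSWIM6 and circRNA-1466 of ZNF165. All 3 groups had 3 members (5.26% against 2.67%; circRNA-42 of ZMYM4, circRNA-461 of ZMYND11 and circRNA-241 of ZNF532), and oocytes and sperm without embryos had 0, against 58 of the 3071 circRNAs (1.89%). In all, 30 members were found in sperm (52.6%, against 32.7% of all circRNAs), 23 in oocytes (40.4% against 48.1%) and 17 in embryos (29.8% against 42.6%). A single library had 8, 10 or 11 (MII oocytes), 8, 8 or 6 (PN embryos) and 17 or 19 (sperm), and the expected sperm numbers at the total of the shallowest library (22809 counts) were 15.3 and 16.3.

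**Figure D2:**
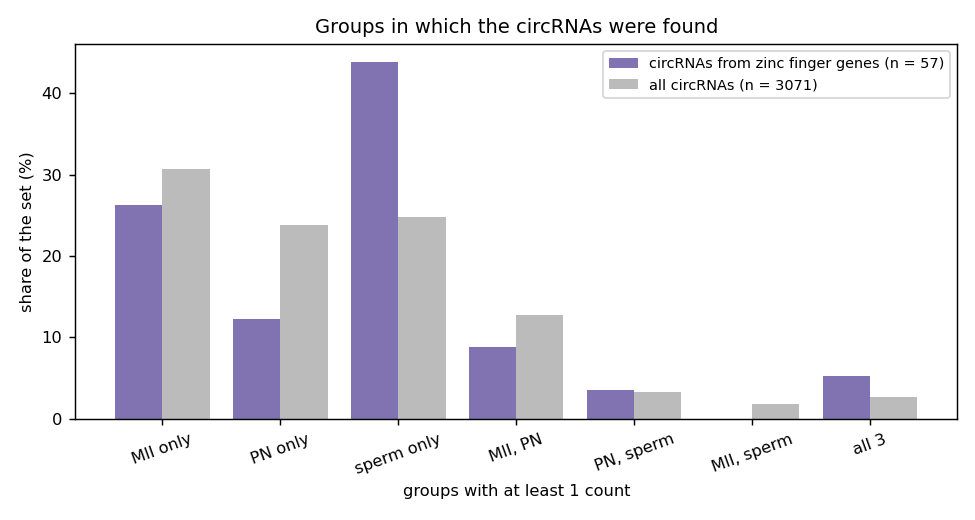
Share of the set (%, vertical axis) found with at least 1 count in each combination of groups, for the 57 circRNAs of zinc finger genes and for all 3071 circRNAs. The sperm-only bar stands at 43.9% for zinc finger genes and 24.8% for all circRNAs, and the PN-only bar at 12.3% and 23.8%.

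A single library held 43 of the 57 members (75.4%, against 71.4% of all circRNAs). In sperm, 6 of 30 members were above 0 in both libraries (against 126 of 1004, or 12.5%, of all sperm circRNAs), 11 in sperm 1 alone and 13 in sperm 2 alone. This was not limited to low counts: of 17 members with at least 50 counts in a sperm library, 11 were at 0 in the other sperm library, against 83.2% of all sperm circRNAs of that size, and 10 of them were at 0 in every other library of the study, against 66.2%. In MII oocytes 19 of 23 members occurred in 1 library, 2 in 2 and 2 in all 3, and in PN embryos 13 of 17, 3 and 1. The main tests asked for a circRNA above 0 in at least 2 libraries of a pair and so left these members out. Without that filter, 32 members were tested between PN embryos and MII oocytes, 50 between sperm and MII oocytes and 42 between sperm and PN embryos. The single member called (edgeR) was circRNA-1974 between sperm and MII oocytes. Of all circRNAs, 0 of 2310, 19 of 2340 and 13 of 2127 were called in these comparisons.

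**Figure D3:**
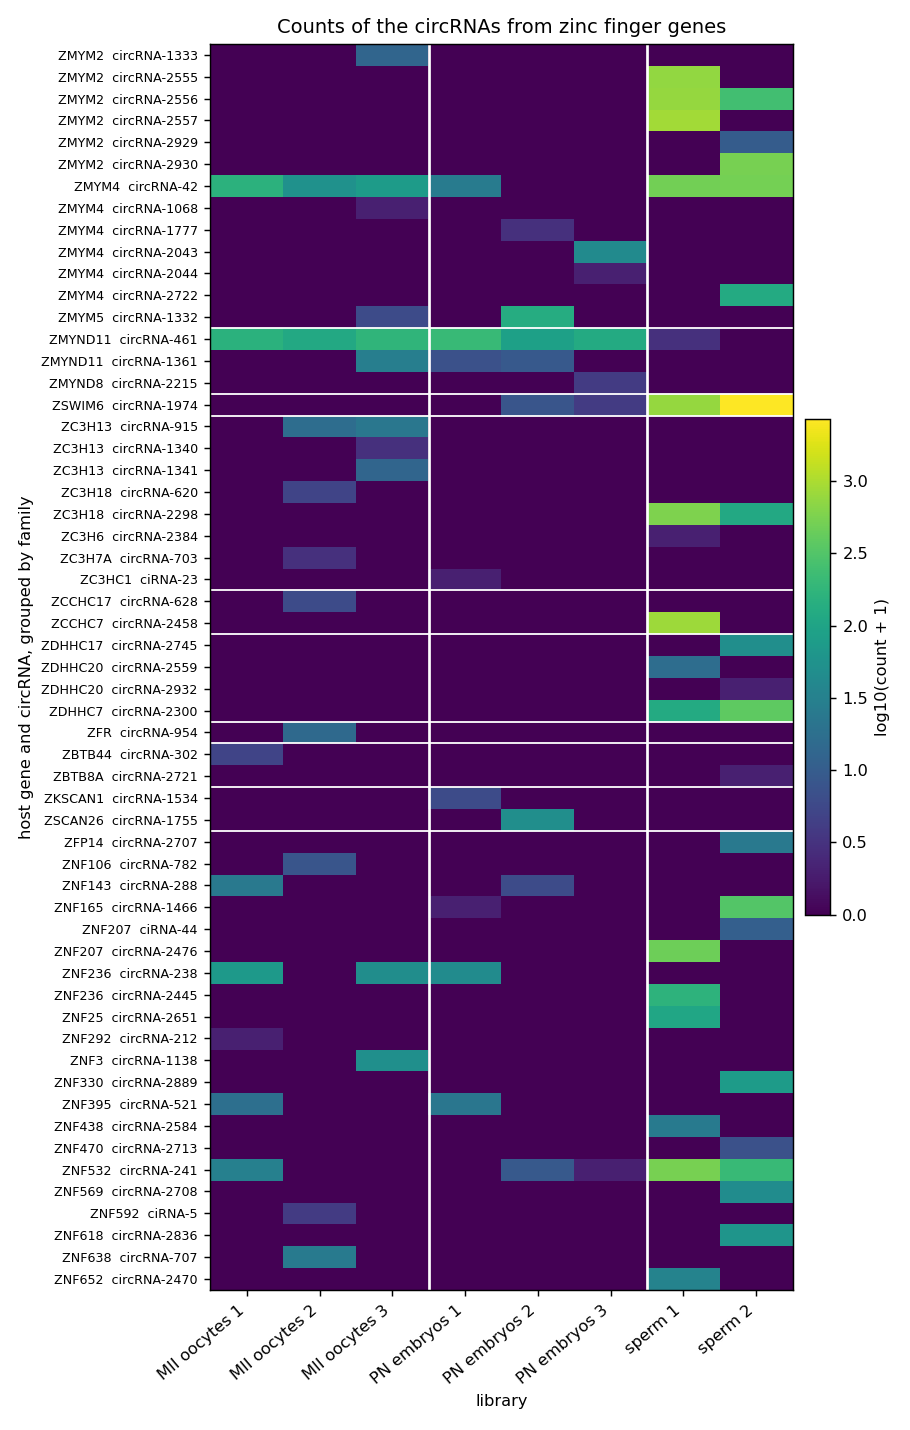
Counts of the 57 circRNAs in the 8 distinct libraries, as log10(count + 1) (colour), with rows grouped by family and named by host and circRNA. Most rows have colour in 1 column only, and the rows of circRNA-461 and circRNA-42 are coloured across the MII oocyte columns while circRNA-1974 is brightest in sperm.

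MYND and MYM finger genes carried most of the signal in oocytes and embryos. Their 16 circles from 5 hosts took 68.0%, 69.4% and 68.9% of the members' counts in the oocyte libraries, 76.7%, 77.0% and 97.7% in the embryo libraries, and 44.1% and 26.4% in sperm. All of this in MII oocytes 1 and 2, and 58.1% of the members' counts in MII oocytes 3, came from circRNA-461 and circRNA-42. In embryos the pair took 74.8%, 29.3% and 70.9%, and in sperm 7.52% and 9.59%. ZMYND11 encodes a chromatin reader of a methylated histone variant that restrains transcript elongation. Its circRNA-461 had 153, 116 and 172 counts in the oocyte libraries, 205, 88 and 124 in the embryo libraries, and 2 and 0 in sperm. It was high in all 6 oocyte and embryo libraries, where it ranked between 8 and 62 among all circRNAs, and its sperm values lay below all of them. Its mean share was 0.623% ± 0.136 for MII oocytes and 0.577% ± 0.283 for PN embryos (SD, n = 3 for both), with a log2 difference of -0.11 ± 1.22 (SE) and an adjusted p of 0.997 by edgeR's quasi-likelihood test. Against sperm, pooled counts gave a ratio of 1005 for MII oocytes (95% counting interval 276 to 8321) and of 915 for PN embryos (252 to 7578). Without sperm 2 the ratios were 483 and 440, and without sperm 1, with sperm then at 0, at least 349 and 323. The adjusted p-values by edgeR, 0.0645 and 0.105, missed the threshold of 0.05, and they moved with the sperm library left out, to 0.0157 and 0.0167 without sperm 1 and to 0.148 and 0.0869 without sperm 2. With 1 sperm library left, the spread comes from the other group alone, and that library is assumed to vary like it. Both differences were called by DESeq2 (7.36e-08 and 2.60e-08), which called 265 of 486 and 253 of 453 circRNAs tested. They were called for circRNAs above 0 in at least 3 libraries (0.0111 and 0.0169), as were 70 of 123 and 44 of 143 circRNAs. With all 3 groups in 1 fit they were called (0.0322 and 0.0351), as were 21 of 877 circRNAs in each comparison. Neither was called with TMM factors (0.0681 and 0.0824), valid reads (0.0871 and 0.112) or the replicate block (0.775 and 0.802).

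A second circle of ZMYND11, circRNA-1361, had 0, 0 and 28 counts in the oocyte libraries, 6, 8 and 0 in the embryo libraries, and 0 in both sperm libraries. It was thus found in 3 of 6 oocyte and embryo libraries at a mean share of 0.0409% and 0.0189%, and the 2 groups overlapped. ZMYND8, which encodes another histone reader, gave circRNA-2215 with 3 counts in PN embryos 3 and 0 elsewhere. ZMYND11 lies at chr10:69159456-69295640 (RefSeq, Sscrofa11.1).

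ZMYM4, at chr6:91453647-91623787, gave 6 circles, and a single one of them recurred. circRNA-42 had 157, 54 and 76 counts in the oocyte libraries, 26, 0 and 0 in the embryo libraries, and 494 and 518 in sperm. All MII oocyte values lay above all PN embryo values, and both sperm values as shares also lay above the embryos. Mean shares were 0.402% ± 0.220 in MII oocytes, 0.0376% ± 0.0651 in PN embryos (n = 3 each) and 0.313% ± 0.00609 in sperm (n = 2). The log2 difference of PN embryos from MII oocytes was -3.40 ± 2.46 (SE; adjusted p = 0.522, edgeR), that of sperm from PN embryos 3.05 ± 2.67 (adjusted p = 0.347) and that of sperm from MII oocytes -0.36 ± 1.31 (adjusted p = 0.821). The direction of the last turned with the scaling, at -2.73 with TMM factors and 2.43 with valid reads, and it was 0.16 without MII oocytes 1. No difference passed the test. Without PN embryos 1 the embryos were at 0, and the fitted differences, which are then no bound, were -9.62 for PN embryos from MII oocytes (adjusted p = 0.551) and 11.19 for sperm from PN embryos (adjusted p = 0.0959). With the replicate block they were -6.69 and 5.01 (adjusted p = 1 and 0.802). The 5 other circles of ZMYM4 each occurred in 1 library: circRNA-2722 with 124 counts in sperm 2, circRNA-2043 with 43 and circRNA-2044 with 1 in PN embryos 3, circRNA-1777 with 2 in PN embryos 2, and circRNA-1068 with 1 in MII oocytes 3.

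ZMYM2 is a component of co-repressor complexes that silence transposons and germline genes, and 5 of its 6 circles were found in sperm alone. circRNA-2556 had 773 and 244 counts in sperm and 0 in all 6 oocyte and embryo libraries. circRNA-2557 had 900 and circRNA-2555 had 743 counts in sperm 1, and both were at 0 in sperm 2. circRNA-2930 had 533 and circRNA-2929 had 9 counts in sperm 2, and both were at 0 in sperm 1. The exception was circRNA-1333, with 12 counts in MII oocytes 3 and 0 in the other 7 libraries. The sperm libraries thus shared 1 circle of this gene and differed in the others, of which the largest ranked 22 of all circRNAs in sperm 1. The share of circRNA-2556 in sperm, 0.321% ± 0.248 (SD, n = 2), was at least 25.3-fold higher than the floor of MII oocytes and at least 26.2-fold higher than that of PN embryos (3 counts per library), with adjusted p-values of 0.105 and 0.128. Without sperm 1 these limits were 11.5-fold and 11.9-fold, and without sperm 2 they were 39.1-fold and 40.6-fold.

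ZMYM2 lies at chr11:661314-731030, next to its paralogue ZMYM5 at chr11:576721-630607. The paralogue had no counts in sperm: circRNA-1332 of ZMYM5 gave 0, 0 and 5 counts in MII oocytes and 0, 133 and 0 in PN embryos. The value of PN embryos 2 made it the leading zinc finger circle of that library, with 44.3% of the members' counts, and the other embryo libraries were at 0. Neighbouring paralogues can share reads, and how such reads were assigned is not given in the sources used here.

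**Figure D4:**
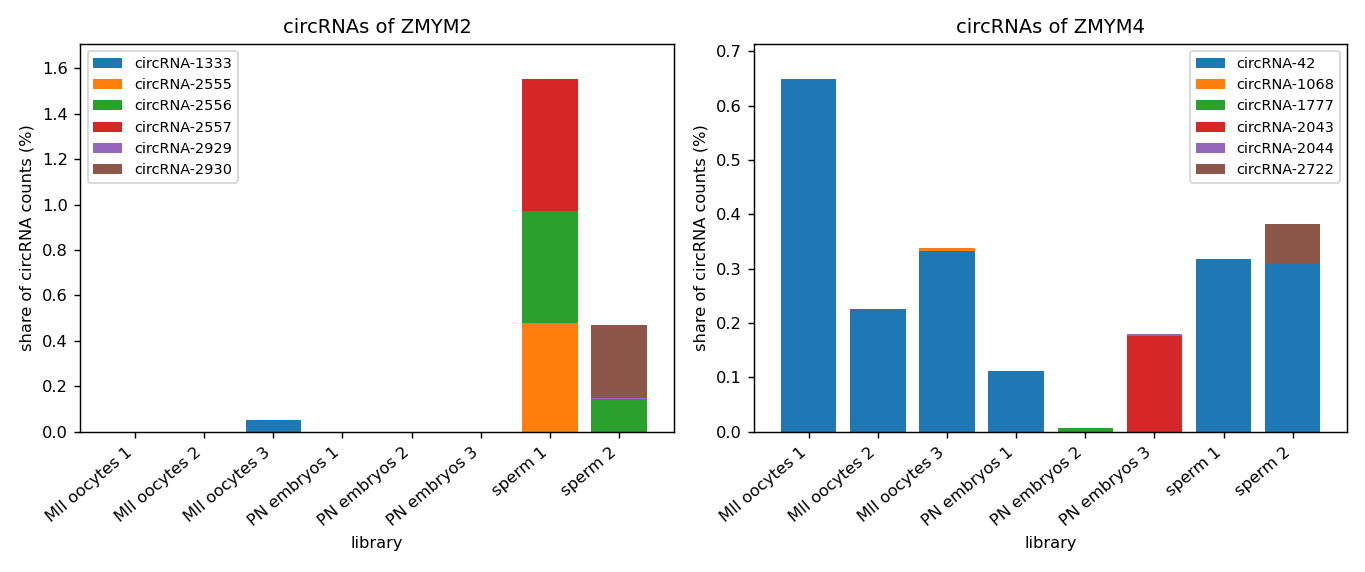
Share of all circRNA counts (%, vertical axis) held by each circle of ZMYM2 (left) and ZMYM4 (right) in the 8 distinct libraries, stacked by circRNA; the panels have different scales. For ZMYM2 both sperm bars contain circRNA-2556 and otherwise different circles, and for ZMYM4 circRNA-42 fills nearly all of each MII oocyte bar and most of both sperm bars.

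ZSWIM6, a gene with a SWIM-type zinc finger at chr16:40105499-40305379, gave the single member with the most counts. circRNA-1974, whose primers are printed above, had 0, 0 and 0 counts in the oocyte libraries, 0, 7 and 3 in the embryo libraries, and 762 and 2682 in sperm. The sperm values were the highest, embryos had low counts in 2 of 3 libraries, and oocytes had none. It ranked 36 in sperm 1 and 5 in sperm 2 among all circRNAs, and made up 11.6% and 49.7% of the members' counts there. Its mean share in sperm was 1.04% ± 0.784 (SD, n = 2), at least 82.3-fold higher than the MII oocyte floor of 3 counts per library (adjusted p = 0.0293, edgeR's quasi-likelihood test). This limit was 38.6-fold without sperm 2 and 126-fold without sperm 1. With oocytes at 0, it entered the test only through sperm. The call was lost without any one MII oocyte library (adjusted p = 0.0660, 0.0550 and 0.0596 by edgeR without libraries 1, 2 and 3). It was also lost with TMM factors (0.0864) and with the replicate block (0.775). Few circRNAs were called in those fits: 0 of 335, 0 of 336 and 13 of 297 without libraries 1, 2 and 3. With TMM factors 10 of 486 were called, and with the replicate block 0 of 486. DESeq2, scaling to valid reads and all 3 groups in 1 fit kept the call (8.19e-07, 0.0151 and 0.0122). These settings called 265 of 486, 91 of 486 and 21 of 877 circRNAs tested. Without either sperm library the circle was above 0 in 1 library and was not tested. Against PN embryos, pooled counts gave a ratio of 78.5 (95% counting interval 42.6 to 164) with an adjusted p of 0.128. The ratio was 36.1 without sperm 2, 118 without sperm 1 and 169 without PN embryos 2. The adjusted p was 0.0119 without sperm 1 and 0.254 without sperm 2, each with the spread taken from the embryos alone. It was 0.0144 by DESeq2 and 0.0290 for circRNAs above 0 in at least 3 libraries. These settings called 253 of 453 and 44 of 143 circRNAs tested. The embryo share, 0.0130% ± 0.0134 (n = 3), was near the floor of oocytes, and no difference between these groups was called (adjusted p = 0.386, edgeR). The fitted log2 difference, 4.71 ± 2.65 (SE), is no bound with oocytes at 0, and the floor gave at least 1.02-fold.

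Genes with ZC3H and ZCCHC symbols, most of which encode RNA-binding CCCH fingers or zinc knuckles, gave 10 circles, 6 in MII oocytes alone, 1 in PN embryos alone and 3 in sperm alone. The embryo circle, ciRNA-23 with 1 count, came from ZC3HC1, which shares the symbol start but encodes a finger of another type. Circles shared by oocytes and sperm were few among all genes (82 of 3071 with embryos and 58 without). ZC3H18 links the cap-binding complex to RNA decay, and its circRNA-2298 had 588 and 115 counts in sperm and 0 in every other library. The sperm share of 0.223% ± 0.219 (SD, n = 2) was at least 17.6-fold above the MII oocyte floor and at least 18.2-fold above the PN embryo floor, with adjusted p-values of 0.105 and 0.128. Both limits rested on sperm 1, and without it they were 5.40-fold and 5.60-fold. Another circle of this gene, circRNA-620, had 4 counts in MII oocytes 2 alone. ZC3H13 encodes a part of the RNA adenosine methyltransferase complex, and its 3 circles were found in MII oocytes alone. circRNA-915 had 0, 16 and 22 counts there, circRNA-1341 had 12 and circRNA-1340 had 2 in MII oocytes 3, and all were at 0 in embryos and sperm. The share of circRNA-915 was at least 29.3-fold lower in sperm than in MII oocytes (adjusted p = 0.105), a limit of 17.95-fold without MII oocytes 3. ZCCHC7, a zinc knuckle protein of a nuclear RNA surveillance complex, gave circRNA-2458 with 853 counts in sperm 1 and 0 in sperm 2 and all other libraries.

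All 4 circles of palmitoyltransferase genes were found in sperm alone, as were 24.8% of all circRNAs. circRNA-2300 of ZDHHC7 had 124 and 383 counts in sperm and 0 in the other 6 libraries, at least 12.1-fold above the MII oocyte floor (adjusted p = 0.105) and at least 12.6-fold above the PN embryo floor (adjusted p = 0.128). Both limits rested more on sperm 2, and without it they were 6.28-fold and 6.51-fold. circRNA-2745 of ZDHHC17 had 48 counts in sperm 2. The circles of ZDHHC20 differed between the sperm libraries, with 16 counts of circRNA-2559 in sperm 1 and 1 count of circRNA-2932 in sperm 2.

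ZNF and ZFP genes were the largest family, with 21 circles from 19 hosts, of which 13 were found in sperm, 9 in MII oocytes and 5 in PN embryos. They took between 0.571% and 31.1% of the members' counts per library. circRNA-241 of ZNF532 was the one found in all groups, with 30, 0 and 0 counts in the oocyte libraries, 0, 8 and 1 in the embryo libraries, and 537 and 201 in sperm. Sperm lay above the embryos in both libraries, but as a share sperm 2 lay close to MII oocytes 1. The log2 difference of sperm was 2.49 ± 2.65 (SE) from MII oocytes (adjusted p = 0.421) and 4.31 ± 2.41 from PN embryos (adjusted p = 0.166). The first moved with the scaling, to 0.22 with TMM factors and 5.22 with valid reads, and the second to 6.90 with valid reads. With the replicate block the first was 4.38. Without MII oocytes 1 the oocytes were at 0 and the fitted value, then no bound, was 10.75 (adjusted p = 0.0849), without sperm 1 it was 1.53, and without PN embryos 2 the second was 6.73. None of these was called.

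ZNF236 gave a circle on each side. circRNA-238 had 71, 0 and 47 counts in the oocyte libraries, 44, 0 and 0 in the embryo libraries and 0 in both sperm libraries, and circRNA-2445 had 163 counts in sperm 1 and 0 elsewhere. Oocytes and embryos overlapped for circRNA-238, and its share was at least 89.6-fold lower in sperm than in MII oocytes (adjusted p = 0.105), a limit of 55.5-fold without MII oocytes 1. circRNA-288 of ZNF143, a promoter-binding transcription factor, was found in MII oocytes 1 (23 counts) and PN embryos 2 (5 counts). circRNA-521 of ZNF395 was found in MII oocytes 1 (17 counts) and PN embryos 1 (21 counts). Both were at 0 in the other libraries.

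**Figure D5:**
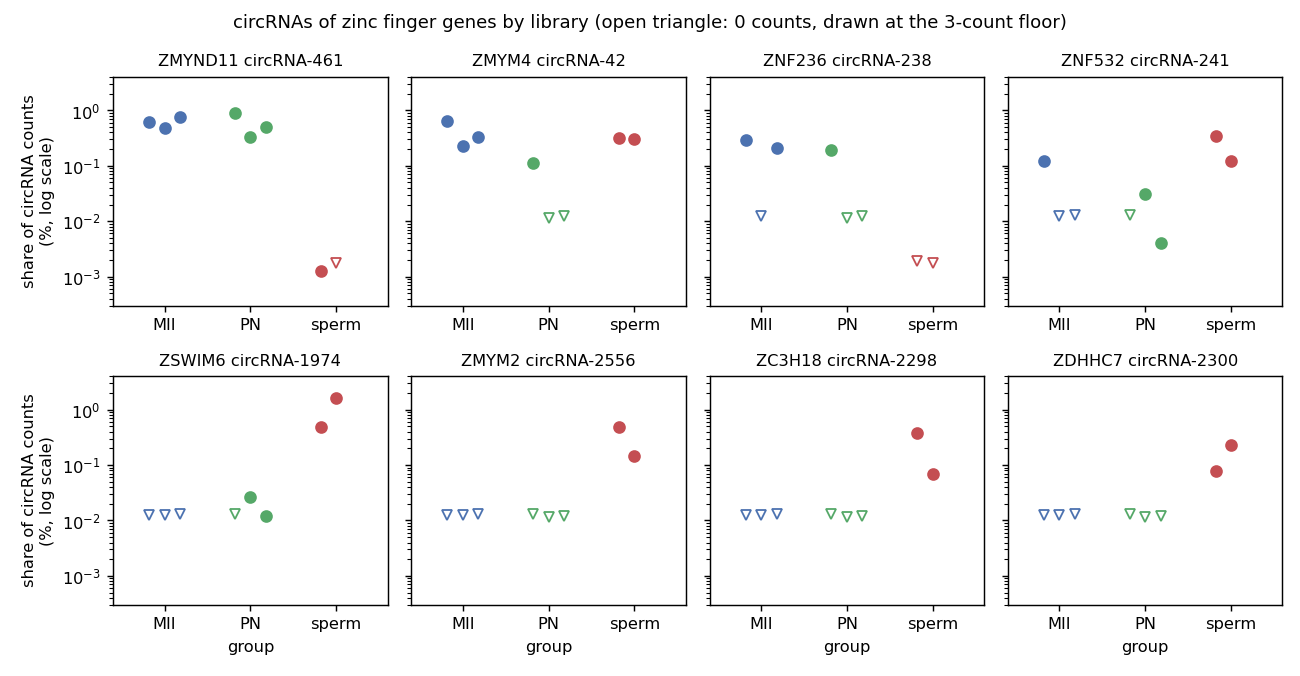
Share of all circRNA counts (%, log scale) of 8 circRNAs in each library, by group (MII, PN, sperm); filled points are measured shares, and open triangles stand for 0 counts and are drawn at the share of 3 counts. circRNA-461 lies far above its sperm values in all oocyte and embryo libraries, circRNA-42 is above 0 in all but 2 libraries, and the lower row is found in sperm at 115 to 2682 counts.

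The remaining C2H2 circles with higher counts were seen in single libraries, apart from 1 of ZNF165. In oocytes these were circRNA-1138 of ZNF3 with 50 counts in MII oocytes 3 and circRNA-707 of ZNF638, which encodes a nucleic acid-binding silencer of retroviral DNA, with 24 in MII oocytes 2. In embryos, circRNA-1755 of ZSCAN26 had 49 counts in PN embryos 2. In sperm, circRNA-2476 of ZNF207, which encodes a spindle assembly factor, had 476 counts in sperm 1, and circRNA-1466 of ZNF165, a gene known from the testis, had 320 in sperm 2 and 1 in PN embryos 1. ZKSCAN1 and ZNF292 are known in other tissues for abundant circles, and they gave 5 counts in PN embryos 1 and 1 count in MII oocytes 1. Of the 28 members outside the rule for named genes, 27 were in 1 library, with highest counts of 1 to 476 and a median of 8.5. Those seen in oocytes reached at most 14 counts, and those in embryos at most 5.

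The question of the PN embryo against MII oocyte comparison was which circles change at fertilization. No member passed the test: 0 of 10 members tested were called, against 0 of 675 circRNAs (0%), at an absolute log2 difference of at least 1 and an adjusted p under 0.05. At an unadjusted p under 0.05 there were 0 of 10 members and 16 of 675 circRNAs (2.37%), and DESeq2 called 0 members. The lowest adjusted p of a member was 0.386. Libraries of the 2 groups did not overlap for 1 member, circRNA-42, which was lower in PN embryos, against 18 of 675 circRNAs (2.67%) in that direction. In the other direction there were 0 members, against 14 circRNAs (2.07%).

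Between sperm and MII oocytes, 1 of 9 members tested was called, circRNA-1974, which was higher in sperm. The background was 19 of 486 circRNAs (3.91%), with 8 higher (1.65%) and 11 lower (2.26%) in sperm. Of the 9, 6 were at 0 in 1 of the groups and entered the test only through the other, where they were high, so that their direction was set by the filter. These were circRNA-1974, circRNA-2298, circRNA-2300 and circRNA-2556, at 0 in MII oocytes and above 0 in both sperm libraries, and circRNA-238 and circRNA-915, at 0 in sperm. Of the 3 members above 0 in both groups, circRNA-461 had libraries that did not overlap and was lower in sperm. Among all 9 members it was the only 1 in that direction, against 11.9% of all circRNAs tested. In the other direction there were 4 of 9, all at 0 in MII oocytes, against 23.0%. An unadjusted p under 0.05 was reached by 6 of the 9 members, 5 of them at 0 in 1 group, and by 34.8% of all circRNAs tested. DESeq2 called 7 of the 9, all but circRNA-42 and circRNA-241, and 54.5% of all circRNAs tested. With scaling to valid reads edgeR called 4, namely circRNA-1974, circRNA-2298, circRNA-2300 and circRNA-2556, all higher in sperm, and 18.7% of all. Between sperm and PN embryos, 0 of 9 members tested were called by edgeR, against 7 of 453 circRNAs (1.55%), while 5 members and 25.8% of circRNAs had an unadjusted p under 0.05. DESeq2 called 6 of the 9 members (circRNA-1361, circRNA-1974, circRNA-2298, circRNA-2300, circRNA-2556 and circRNA-461) and 253 of the 453 circRNAs (55.8%). Of the 9, 4 were at 0 in 1 of the groups, namely circRNA-2298, circRNA-2300 and circRNA-2556 in PN embryos and circRNA-1361 in sperm. Among the 5 above 0 in both groups, the libraries of circRNA-1974, circRNA-241 and circRNA-42 did not overlap and were higher in sperm. Those of circRNA-461 did not overlap and were lower. With the members at 0 in 1 group, 6 of 9 were higher without overlap, against 23.4% of all circRNAs tested. In the other direction there was 1 of 9, against 13.2%. For circRNA-1361, circRNA-2298, circRNA-2300 and circRNA-2556 the direction was set by the filter. These comparisons share their sperm libraries and are not independent.

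Hosts of these circles had few isoforms. Of the 40 hosts, 32 gave 1 circle (80.0%, against 63.6% of all hosts), 5 gave 2, and 3 gave 3 or more (7.5% against 16.5%), namely ZMYM2, ZMYM4 and ZC3H13. Of the 8 hosts with more than 1 circle, 5 had circles in more than 1 group (ZC3H18, ZMYM2, ZMYM4, ZMYND11 and ZNF236). RefSeq listed 39 of the 40 hosts on 14 chromosomes. Chromosome 6 had 7 hosts with 13 circles and chromosome 11 had 4 hosts with 12. Besides the ZMYM pair, ZKSCAN1 (chr3:7920640-7959462) and ZNF3 (chr3:7971917-7982693) were close neighbours, and their circles were found in PN embryos 1 and MII oocytes 3.

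The lncRNA table, whose values are mean read coverage along a transcript, listed 89 transcripts under 27 of the 40 host symbols, with 18 for ZSWIM6. How the transcripts were given these symbols is not stated in the sources used here, and RefSeq itself lists ZNF532 as an lncRNA gene. At a coverage of at least 1, 43 were found in at least 1 MII oocyte library (48.3%, against 67.5% of all transcripts), 46 in PN embryos (51.7% against 60.7%) and 45 in sperm (50.6% against 21.8%). In all 3 libraries of a group there were 7 in MII oocytes (7.87% against 16.5%), 8 in PN embryos (8.99% against 14.2%) and 1 in sperm (1.12% against 0.846%), a ZNF438 transcript at 49.1, 79.7 and 29.2. Found in sperm alone were 27 of 89 (30.3%), against 13.2% of all 60759 transcripts. Among transcripts picked after their values were seen, 1 of ZNF207 was at 591, 700 and 665 in MII oocytes and 529, 698 and 663 in PN embryos. It was at 58.3, 0.56 and 0 in sperm, although the 2 circles of this gene were in sperm alone. Another of the 4 ZNF207 transcripts went the other way, at 0 in MII oocytes, 8.45 in PN embryos 2 and 0, 0 and 620 in sperm 1 to 3. A ZNF532 transcript had 234, 171 and 249 in MII oocytes and 35.0, 53.9 and 101 in PN embryos. It had 0, 0.41 and 0 in sperm, where the circle of this gene had its highest counts. Other ZNF532 transcripts were highest in sperm 1. One had 508, 0 and 17.8 in sperm 1 to 3 and 11.6 to 42.1 in oocytes and embryos. Another had 778, 0 and 0 in sperm, 0 in MII oocytes and 2 in PN embryos 2. No difference in coverage was tested.

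Among 117 C2H2 and GATA factor genes without such a symbol (CTCF, the KLF and SP groups and others), hosts included PRDM2 with 75 counts in PN embryos 1, KLF7 with 80 counts in sperm 1 and PRDM10 with 45 counts in sperm 2, each as 1 circle at 0 in the other libraries. Of 21 genes whose products act with KRAB zinc finger proteins, 5 were hosts, with 18 circles, of which 9 were found in MII oocytes, 11 in PN embryos and 1 in sperm. The chromatin remodeller ATRX gave 8 of them, among them circRNA-2670 with 523 counts in sperm 1 and 0 in sperm 2. TRIM28, the central co-repressor, was not a host.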

How the data were processed

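Ribosomal RNA was depleted from total RNA, and strand-marked libraries were sequenced by the authors. The authors deposited whole-number counts per circRNA with the host gene, without normalization, and, for lncRNAs, coverage per transcript. The submitters' processing notes name cutadapt 1.9, TopHat2 2.0.4, HISAT2 2.0.4, StringTie 1.3.4d and build Sscrofa11.1, and the circRNA caller is not given in the sources used here. Of the columns for samples, 0 were left unused. The members and lists were chosen with earlier results of these data known, although the rule for members reads the host symbol alone.

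Quasi-likelihood tests of edgeR 4.0.16 (glmQLFit, glmQLFTest; R 4.3.3) were run for each pair of groups, scaled to total circRNA counts, for circRNAs above 0 in at least 2 libraries of the pair, with Benjamini-Hochberg adjustment over all circRNAs tested. A difference was called where the adjusted p was under 0.05 and the log2 difference was 1 or more in size. The scripts were tested on simulated data. The rest used Python 3.11.15, pandas 2.3.3, numpy 2.4.6 and scipy 1.17.1. Intervals (95% Wilson for shares, 95% exact for ratios of pooled counts) and floors of 3 counts cover counting error only. Host positions and biotypes are RefSeq's. Members were named where they passed the threshold, were above 0 in every library of a group or in all 3 groups, were among the 10 highest of a group, came from a host with 3 or more circRNAs, or were shortlisted in the study. The alternatives were TMM factors, scaling to valid reads, DESeq2 1.42.0, other filters, all 3 groups in 1 fit, a replicate block, the identical sperm columns as 2 samples, and each replicate left out. The mRNA table was not used here. A gene of the list of zinc finger genes under other symbols is not reported here.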

Additional observations from a re-analysis of the deposited data

How the results depend on the processing

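Sperm rested on 2 distinct libraries, and most members occurred in 1 library. Of 9 members tested between sperm and MII oocytes, 1 was called. That number was 0 with TMM factors, 4 with scaling to valid reads (all higher in sperm; 18.7% of all circRNAs tested were called), 7 with DESeq2 (4 higher, 3 lower; 54.5%), 2 with all 3 groups in 1 fit (circRNA-1974 higher, circRNA-461 lower), 0 with the replicate block, and 0 to 1 when a library was left out. The fit of all 3 groups called 21 of all 877 circRNAs tested. With circRNAs above 0 in at least 3 libraries, 1 of 3 members and 70 of 123 circRNAs were called. The member called was then circRNA-461 (adjusted p = 0.0111 by edgeR). Without sperm 1 it was again circRNA-461 (adjusted p = 0.0157), and without sperm 2 there was none. Between sperm and PN embryos, where 0 were called, DESeq2 called 6 (4 higher and 2 lower, against 55.8% of all circRNAs). The filter of 3 libraries called 2 of 4 members and 44 of 143 circRNAs. All 3 groups in 1 fit called 1 of 14 members and 21 of 877 circRNAs. The replicate block called 0 members, as did leaving out any 1 PN embryo library. Without sperm 1 the calls were circRNA-1974 and circRNA-461, and without sperm 2 there were 0. With 1 sperm library, the spread comes from the other group alone. Between PN embryos and MII oocytes 0 were called under every alternative run. The median log2 difference of all circRNAs tested between sperm and MII oocytes was -6.07, with TMM factors -8.21 and with valid reads -4.37, and between sperm and PN embryos it was -3.43, -3.35 and -0.63. The cause of these differences was not tested.

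The replicate numbers were not shown to pair the samples: deviations of same-numbered oocyte and embryo libraries correlated at -0.004, 0.109 and 0.183 across 675 circRNAs, and MII oocytes 1 correlated best with PN embryos 2.

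With at least 10 counts in a library, 13 members were detected in MII oocytes and 7 in PN embryos. In at least 2 libraries there were 4, 4 and 6 in MII oocytes, PN embryos and sperm. Leaving out a library gave 11 to 14 in PN embryos and 17 to 19 in sperm. Without circRNA-1974, an alternative chosen after seeing the data, the mean share of sperm was 2.68%. Without the leading member of each group the mean shares were 0.969%, 0.489% and 2.68%, and with C2H2 hosts alone 0.390%, 0.183% and 0.652%. Scaled to valid reads, the ratio of sperm was 16.3 to MII oocytes and 23.0 to PN embryos. Reversed log2 differences were those of circRNA-461 between PN embryos and MII oocytes (0.30 with DESeq2, 0.05 without MII oocytes 3, 0.16 without PN embryos 2) and of circRNA-42 between sperm and MII oocytes (2.43 scaled to valid reads, 0.16 without MII oocytes 1), none of them called. Leaving out a library in turn gave -0.57 to 0.16 for the former and -0.65 to 0.16 for the latter.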
